A study of Homo sapiens with 8 samples.

Results

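Neurotrophin signalling was examined as a set of 54 genes that encode its ligands, receptors, adaptors and the kinases of its RAS-ERK, ERK5, PI3K-AKT, phospholipase C and stress branches. The genes were chosen by their known place in the pathway, but with earlier results of these data known. Each was read from every probe set that the platform annotation ties to that gene symbol alone. Of the 54 genes, 45 had such a probe set, with 158 probe sets among them, out of 18132 genes and 49395 probe sets in all. The other 9 genes (1 ligand, 1 receptor, 2 adaptors, 2 members of the RAS-ERK cascade, 2 of the PI3K-AKT branch and 1 stress kinase) are not analysed here.

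Total RNA of H1299 cells, a human non-small cell lung carcinoma line, was measured on 8 one-colour arrays. Cells carrying short hairpin RNA against USF1, a basic helix-loop-helix factor that binds E-box DNA, gave 3 arrays and their controls gave 3. Cells carrying short hairpin RNA against UGT1A3, an enzyme that attaches glucuronic acid to lipophilic compounds, gave 1 array and their control 1. All cells shared the same line and culture medium, and the labels do not say what the control cells received, how many hairpins were used or how long after transfection RNA was taken. The title of the study ties both genes to neurotrophin signalling, which is the question the comparisons address. The labels do not tie the arrays of a group to separate cultures. The p-values cover the spread between arrays alone, and that spread may be technical.

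Neurotrophins such as BDNF bind Trk receptor tyrosine kinases, and all of them also bind the p75 receptor encoded by NGFR. Activated Trk receptors recruit adaptors such as SHC1 and GRB2, which pass the signal to RAS and the ERK kinases, to phosphatidylinositol 3-kinase (PI3K) and AKT, and to phospholipase C gamma. The pathway is best known for neuronal survival and growth, while its adaptors and kinases serve many growth factor receptors in epithelial and carcinoma cells.

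USF1 itself read 6.06, 5.88 and 6.13 in the USF1 knockdown arrays, against 6.31, 6.55 and 6.42 in the controls, all as log2 intensity. Its fall of 0.40 left 75.6% of the control level (SE 0.08, limma adjusted p = 0.00818). UGT1A3 had 0 probe sets of its own. The 9 probe sets it shares with other genes of its locus all lay under the limit for dim signals in the UGT1A3 arrays and differed by -0.45 to 0.06, so that knockdown has no direct check here. Of the 3 carcinoma markers, VIM and KRT18 averaged 14.57 and 12.85 in the USF1 knockdown arrays and 14.56 and 12.81 in the controls, while KRT8, a keratin, averaged 9.32 and 9.07 and rose by 0.25 (adjusted p = 0.00197). Of the other markers the leukocyte gene PTPRC, the fibroblast collagen COL1A1 and the neuroendocrine gene CHGA were too dim to be tested, with means under 5.63. The second leukocyte marker CD68 averaged 9.37 in knockdown arrays and 9.46 in controls, the second fibroblast marker PDGFRB 5.93 and 5.90, and the endothelial markers PECAM1 and VWF lay at the limit (5.64 and 5.63 in knockdown arrays, 5.64 and 5.64 in controls). None of these 4 passed the test. Of the 5 neuronal and neuroendocrine markers 2 rose (SYT1 by 0.30, adjusted p = 0.00947, and ENO2 by 0.15, adjusted p = 0.00497), 1 fell (SNAP25 by 0.39, adjusted p = 0.000317) and SYP differed by -0.02 (adjusted p = 0.915). Their summed level was 10.25 to 10.26 in knockdown arrays and 10.30 to 10.32 in controls, as log2 of the summed intensity, and their part in the results below was not tested. Median log2 intensity was 6.53 to 6.55 on the USF1 arrays and 5.59 to 5.63 on the UGT1A3 arrays, so intensities were compared within each set of arrays and not between them.

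Since USF1 binds the E-box CACGTG, this motif was looked for in the RefSeq promoter windows (GRCh38.p14, 250 bases before to 50 after the gene start, the window farthest 5′ for each gene). The motif is its own reverse complement, so 1 search covers both strands. Of the 45 genes with a probe set 41 had a window and 3 of these held the motif, or 7.32%, against 10.3% of the 9443 windows of all genes tested after USF1 knockdown and 7.41% of all 27305 windows. The 3 genes were MAPK3, KIDINS220 and IRS1, and in IRS1 the motif began 35 bases after the gene start. The stretches before the gene start are shown for the other two, on the minus strand and written 5′ to 3′, with CACGTG in capitals. They show where the motif lies, and a match says nothing about binding.
MAPK3, chr16:30123323-30123382: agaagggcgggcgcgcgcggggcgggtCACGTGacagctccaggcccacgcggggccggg
KIDINS220, chr2:8837614-8837653: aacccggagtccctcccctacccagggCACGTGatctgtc

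After USF1 knockdown the neurotrophin signalling genes that changed mostly rose. Of the 45 genes 39 were bright enough to be tested, and 18 of these rose, 2 fell and 19 did not pass an adjusted p of 0.05. The share that rose was 46.2%, where 22.0% of all 11448 tested genes rose, and the share that fell was 5.13%, where 18.7% of all tested genes fell. In either direction 51.3% of the set passed, against 40.7% of all tested genes. The median change over the 39 genes was 0.12 on the log2 scale, and 0.01 over all tested genes. The changes were small. Past the threshold with a change of at least 0.32 in size were 3 of the 39 genes, or 7.69%, against 9.36% of all tested genes, with AKT2 just short of that limit. At least 1.5-fold was 1 of them, or 2.56%, against 1.69% of all tested genes. The 3 knockdown arrays lay wholly on one side of the 3 controls for 26 of the 39 genes, or 66.7%, against 53.6% of all tested genes. By branch, the share that passed was 3 of 7 adaptors and 3 of 7 RAS-ERK genes (42.9% each), 6 of 9 PI3K-AKT genes (66.7%), 2 of 5 stress kinases (40%), 1 of 3 genes of the phospholipase C branch (33.3%), 1 of 4 receptor genes (25%), the 1 ligand and all 3 ERK5 genes. Apart from the PI3K-AKT branch and these last 2 small branches, the shares lay close to the 40.7% of all tested genes or under it. These are bulk measurements, so a change in every cell and a larger change in some of the cells cannot be told apart.

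**Figure D1:**
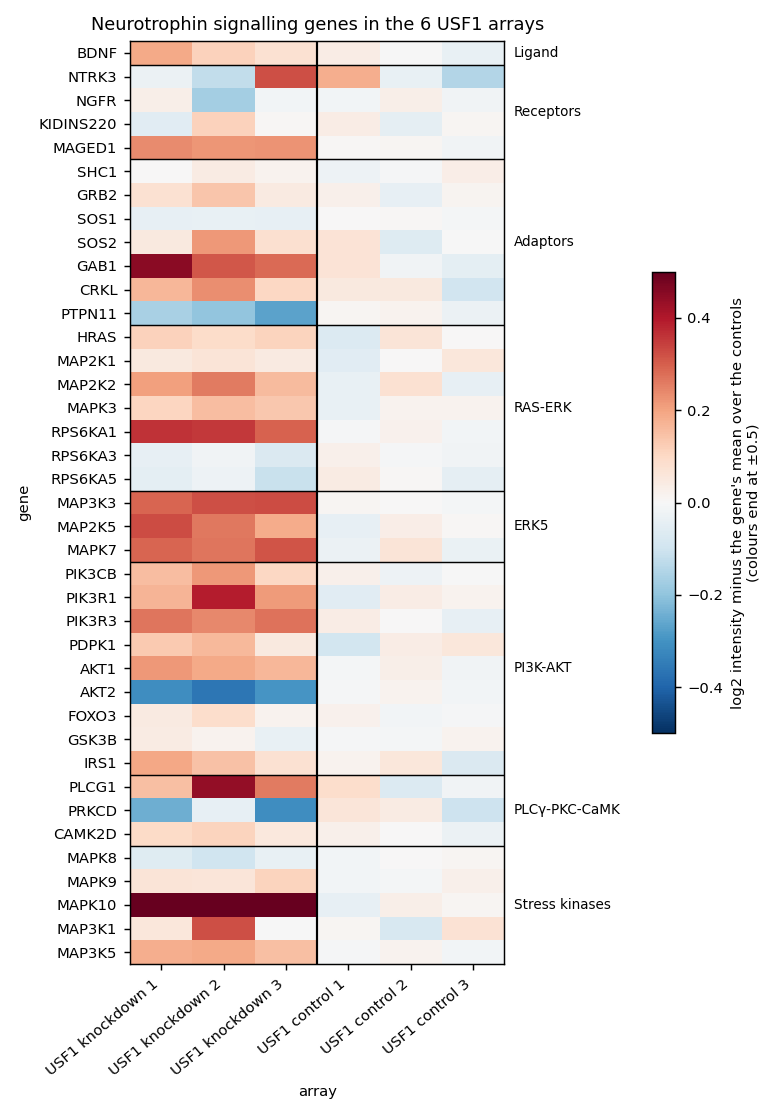
Log2 intensity of each of the 39 tested genes (rows, grouped by branch) in the 3 USF1 knockdown arrays and the 3 USF1 control arrays (columns), as the difference from that gene's mean over the controls. The rows of MAP3K3, MAP2K5 and MAPK7 are warm in all 3 knockdown arrays, that of AKT2 is cool in all 3, and MAPK10 lies past the end of the colour scale.

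Among the ligands, only BDNF, which signals through the receptor TrkB, was bright enough to be tested. It read 10.14, 10.07 and 10.03 in USF1 knockdown arrays, against 9.99, 9.95 and 9.92 in controls. The groups did not overlap, but the highest control lay only just under the lowest knockdown array. BDNF rose by 0.13 (SE 0.04, adjusted p = 0.0404). All 5 of its probe sets were higher in the knockdown group, by 0.13 to 0.23, and 3 of them passed when every probe set was tested on its own. The call was lost without knockdown 1 or 2 or any 1 of the 3 controls, where the adjusted p was between 0.0565 and 0.126. It was also lost with no limit on dim genes (adjusted p = 0.0991). NTF4, another TrkB ligand, had a single probe set at a mean of 4.71, under the dim limit of 5.63.

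Trk receptors were near or under the limit of measurement in these cells. NTRK2, which encodes TrkB, had 10 probe sets with means from 3.21 to 4.91 in the USF1 arrays, all under the dim limit. NTRK3, which encodes the neurotrophin-3 receptor TrkC, was tested on 1 of its 4 probe sets. It read 5.60, 5.51 and 5.95 in USF1 knockdown arrays, against 5.81, 5.59 and 5.48 in controls. The groups overlapped and the difference of 0.06 had an SE of 0.13 (adjusted p = 0.762). NGFR read 6.06, 5.87 and 6.02 in knockdown arrays, against 6.02, 6.07 and 6.02 in controls. Its difference of -0.05 was as large as its SE of 0.05 (adjusted p = 0.482), and without knockdown 2 it was 0.01.

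Of the proteins that act at these receptors 1 rose. MAGED1, a p75 binding protein that promotes cell death, read 11.58, 11.56 and 11.57 in USF1 knockdown arrays, against 11.35, 11.35 and 11.33 in controls. The arrays of each group lay within a few hundredths of a unit of each other and the groups were well apart. MAGED1 rose by 0.23 (SE 0.03, adjusted p = 0.000806), and all 4 of its probe sets passed, at 0.11 to 0.23. KIDINS220, a scaffold that Trk receptors phosphorylate, read 9.28, 9.45 and 9.35 in knockdown arrays, against 9.38, 9.30 and 9.35 in controls. These values overlapped, with a difference of 0.02 (SE 0.05, adjusted p = 0.768), and none of its 4 probe sets passed.

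Of the 7 tested adaptors and exchange factors 2 rose, 1 fell and 4 did not pass, that is 28.6% upward and 14.3% downward where all tested genes gave 22.0% and 18.7%. GAB1, a docking protein that brings PI3K and the phosphatase SHP2 to activated receptors, read 7.41, 7.27 and 7.24 in USF1 knockdown arrays, against 7.02, 6.94 and 6.91 in controls. It rose by 0.35 (SE 0.05, adjusted p = 0.00278), the second largest change of the set, with a gap of 0.22 between the groups. Of its 8 probe sets only 2 were bright enough to be tested, and the second gave 0.25 without passing (adjusted p = 0.119 with every probe set tested on its own).

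SHP2 itself is encoded by PTPN11 and is needed for full activation of RAS. PTPN11 read 10.22, 10.18 and 10.11 in USF1 knockdown arrays, against 10.39, 10.40 and 10.35 in controls, and no knockdown array reached a control. It fell by 0.21 (SE 0.04, adjusted p = 0.00395), and its second tested probe set fell too, by 0.18. CRKL, an SH2 and SH3 adaptor linked to RAP1 activation, rose by 0.17 (SE 0.05, adjusted p = 0.0408). That call was lost without knockdown 1 or 2 or any 1 control, where the adjusted p was between 0.058 and 0.102. It was also lost with no limit on dim genes (adjusted p = 0.093).

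The central adaptors showed smaller differences. GRB2, which couples receptors to the RAS activators SOS1 and SOS2, differed by 0.09 (SE 0.04, adjusted p = 0.101). SHC1, which bridges Trk receptors to GRB2, differed by 0.02 (SE 0.03, adjusted p = 0.636). SOS1 differed by -0.04 on its brightest probe set, whereas another of its 4 gave 0.25 and passed (adjusted p = 0.00165 with every probe set tested on its own). SOS2 differed by 0.12 (adjusted p = 0.14; 0.065 without knockdown 2), with 1 of 3 probe sets passing upward. SHC2, SHC3 and SHC4, the relatives of SHC1 known from nervous tissue and melanoma, lay under the dim limit on all their probe sets.

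In the RAS-ERK cascade 3 of the 7 tested genes rose and none fell, and the 42.9% that passed lay near the 40.7% of all tested genes. RPS6KA1, which encodes the ERK-activated kinase RSK1, read 7.71, 7.71 and 7.65 in USF1 knockdown arrays, against 7.35, 7.37 and 7.34 in controls. The groups were clearly separated and RPS6KA1 rose by 0.34 (SE 0.03, adjusted p = 0.000361). All 4 of its probe sets passed, at 0.28 to 0.41. MAP2K2, which encodes the ERK kinase MEK2, read 10.56, 10.61 and 10.51 in knockdown arrays, against 10.32, 10.43 and 10.31 in controls. It rose by 0.21 (SE 0.04, adjusted p = 0.00995). MAPK3, which encodes ERK1 and carries the E-box shown above, rose by 0.13 (SE 0.03, adjusted p = 0.0134). Both were read from 1 probe set each.

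The remaining genes of the cascade did not pass on their brightest probe set. HRAS, one of the RAS GTPases, differed by 0.11 (SE 0.04, adjusted p = 0.0699), and it passed without control 2 (0.14, adjusted p = 0.0349). MAP2K1, which encodes MEK1, differed by 0.05 (adjusted p = 0.273), although its 2 dimmer probe sets both passed, each at 0.12. RPS6KA5, which encodes the nuclear kinase MSK1, differed by -0.06 (adjusted p = 0.233). RPS6KA2 (RSK3) lay under the dim limit.

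RPS6KA3, which encodes RSK2, depended on which probe set was read. Its brighter probe set differed by -0.04 (SE 0.03, adjusted p = 0.283), and its other probe set rose by 0.49 (adjusted p = 0.000106 with every probe set tested on its own). With the mean of both, RPS6KA3 rose by 0.22 (adjusted p = 0.000563). In the UGT1A3 pair the same 2 probe sets gave -0.04 and 0.63. The files do not say where on the transcript each probe set lies, and whether they read different transcripts was not tested.

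All 3 genes of the ERK5 cascade, a MAP kinase route that neurotrophins activate alongside ERK1, rose after USF1 knockdown. MAP3K3, the MEKK3 kinase at its top, read 8.71, 8.74 and 8.74 in knockdown arrays, against 8.42, 8.42 and 8.41 in controls. MAP2K5, which encodes the ERK5 kinase MEK5, read 8.325, 8.261 and 8.185 in knockdown arrays, against 7.959, 8.030 and 8.005 in controls. MAPK7, which encodes ERK5 itself, read 7.92, 7.89 and 7.93 in knockdown arrays, against 7.59, 7.69 and 7.59 in controls. In each gene the lowest knockdown array was above the highest control. The changes were 0.31 for MAP3K3 (SE 0.03, adjusted p = 0.000281), 0.26 for MAP2K5 (SE 0.04, adjusted p = 0.00357) and 0.29 for MAPK7 (SE 0.04, adjusted p = 0.00109). The 3 tested probe sets of MAP3K3 all passed, at 0.14 to 0.31, while MAP2K5 and MAPK7 each had 1 bright probe set.

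**Figure D2:**
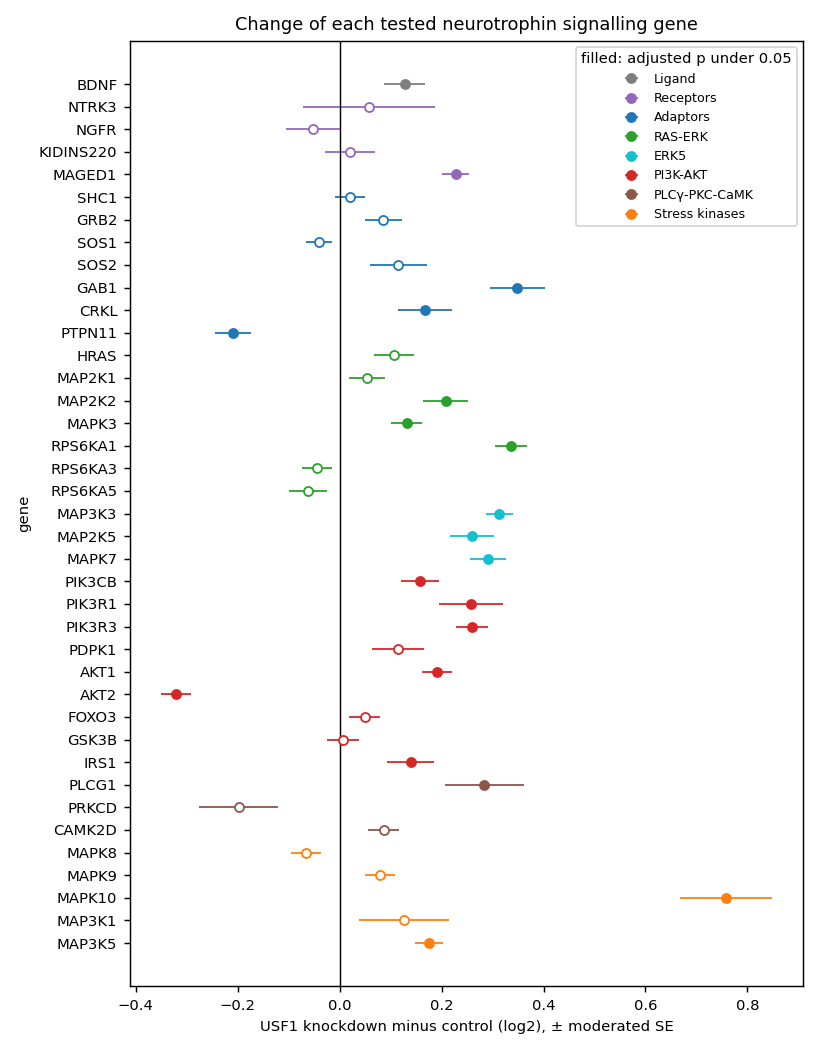
Change of each of the 39 tested genes after USF1 knockdown (USF1 knockdown minus control, log2, with the moderated SE), coloured by branch and filled where the adjusted p was under 0.05. Of the 20 filled points 18 lie right of 0, and PTPN11 at -0.21 and AKT2 at -0.32 lie left of it.

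The PI3K-AKT branch held 5 genes that rose, 1 that fell and 3 that did not pass, out of 9. The 2 AKT kinases, which act below PI3K on survival and metabolism, moved in opposite directions. AKT1 read 10.19, 10.16 and 10.14 in USF1 knockdown arrays, against 9.96, 10.00 and 9.96 in controls. AKT2 read 9.81, 9.76 and 9.82 in knockdown arrays, against 10.11, 10.13 and 10.10 in controls. Neither gene had an overlap between groups. AKT1 rose by 0.19 (SE 0.03, adjusted p = 0.00273) and AKT2 fell by 0.32 (SE 0.03, adjusted p = 0.000393), to 80.0% of the control level. Both tested AKT1 probe sets rose, by 0.19 and 0.21. All 11 tested AKT2 probe sets were lower in the knockdown arrays, from -0.43 to -0.15, and 10 of them passed. Probe sets of 1 gene share their RNA and can share sequence, so they are not independent measurements.

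All 3 tested PI3K subunit genes of the set rose. PIK3R3, a regulatory subunit, read 9.83, 9.80 and 9.83 in USF1 knockdown arrays, against 9.60, 9.57 and 9.52 in controls, and rose by 0.26 (SE 0.03, adjusted p = 0.000971). Its 4 tested probe sets all passed, at 0.17 to 0.45. PIK3R1, the major regulatory subunit p85 alpha, read 8.64, 8.87 and 8.69 in knockdown arrays, against 8.42, 8.51 and 8.49 in controls. The groups were separate and knockdown 2 was the highest. PIK3R1 rose by 0.26 (SE 0.06, adjusted p = 0.0155), with 4 of 7 probe sets passing upward and a range from -0.06 to 0.30, but the adjusted p was 0.057 without control 1. The catalytic subunit gene PIK3CB rose by 0.16 (SE 0.04, adjusted p = 0.0146), and without control 2 its adjusted p was 0.0525. PIK3CD, a catalytic subunit gene outside the set, rose by 0.22 (SE 0.04, adjusted p = 0.00753). It was picked as a PI3K subunit from 41 other tested genes of the pathway, of which 10 rose and 12 fell.

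Above and below PI3K the differences were smaller. IRS1, the insulin receptor substrate that binds PI3K, rose by 0.14 (SE 0.05, adjusted p = 0.0496), with probe sets from -0.08 to 0.26. This call, at the edge of the threshold, was lost without knockdown 1 or 2 or any 1 control (adjusted p between 0.0514 and 0.142). It was also lost with probe sets averaged (adjusted p = 0.135), with every probe set tested on its own (0.0564) and with no limit on dim genes (0.112). PDPK1, the kinase that activates AKT, differed by 0.11 (SE 0.05, adjusted p = 0.116; 0.069 without control 1), although 2 of its 6 probe sets passed upward. The AKT substrates FOXO3, a transcription factor, and GSK3B, a kinase of glycogen and beta-catenin control, differed by 0.05 (SE 0.03, adjusted p = 0.239) and 0.01 (SE 0.03, adjusted p = 0.881).

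In the phospholipase C branch PLCG1, the Trk-bound enzyme that releases calcium and activates protein kinase C, read 7.79, 8.08 and 7.90 in USF1 knockdown arrays, against 7.73, 7.57 and 7.62 in controls. The lowest knockdown array lay only just above the highest control, and knockdown 2 was the highest of all 6. PLCG1 rose by 0.28 (SE 0.08, adjusted p = 0.0255), and its second probe set passed at 0.33. The call on the brighter probe set was lost without control 2 (adjusted p = 0.0838) or control 3 (adjusted p = 0.076), and with no limit on dim genes (adjusted p = 0.0591). PRKCD, which encodes protein kinase C delta, differed by -0.20 with overlapping groups (SE 0.08, adjusted p = 0.0833), and without knockdown 2 by -0.28 (adjusted p = 0.0134). CAMK2D, a calcium and calmodulin dependent kinase, differed by 0.09 (SE 0.03, adjusted p = 0.0622), and its 3 dimmer probe sets gave -0.06 to -0.03.

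The largest change of the set was in a stress kinase. MAPK10, which encodes JNK3, the JNK kinase known chiefly from neurons, read 6.59, 6.76 and 6.37 in USF1 knockdown arrays, against 5.77, 5.84 and 5.82 in controls. The lowest knockdown array lay 0.53 above the highest control, and the knockdown arrays were spread more widely than the controls (SD 0.19 and 0.04). MAPK10 rose by 0.76 (SE 0.09, adjusted p = 0.000967), or 1.69-fold, and 0.638% of all tested genes changed by as much or more. On this probe set the control level was 0.18 above the dim limit. The second MAPK10 probe set gave 0.44 and passed. It read 5.87, 6.07 and 6.07 in knockdown arrays, against 5.43, 5.58 and 5.69 in controls. The control mean lay under the dim limit of 5.63, so this probe set was tested only through its knockdown values. Its call is therefore no separate support.

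The other JNK genes did not pass on their brightest probe sets. MAPK8 (JNK1) differed by -0.07 (SE 0.03, adjusted p = 0.122) and MAPK9 (JNK2) by 0.08 (SE 0.03, adjusted p = 0.0711). MAPK9 had 1 dimmer probe set, of 4, that rose by 0.66 (adjusted p = 0.000163 with every probe set tested on its own), while the other 3 lay between -0.03 and 0.08. Of the kinases above JNK, MAP3K5 (ASK1), which responds to oxidative stress, rose by 0.17 (SE 0.03, adjusted p = 0.0029), and MAP3K1 (MEKK1) differed by 0.13 (SE 0.09, adjusted p = 0.299). The MAP3K1 value rested on knockdown 2, without which it was 0.027, and it was 0.19 without knockdown 3.

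**Figure D3:**
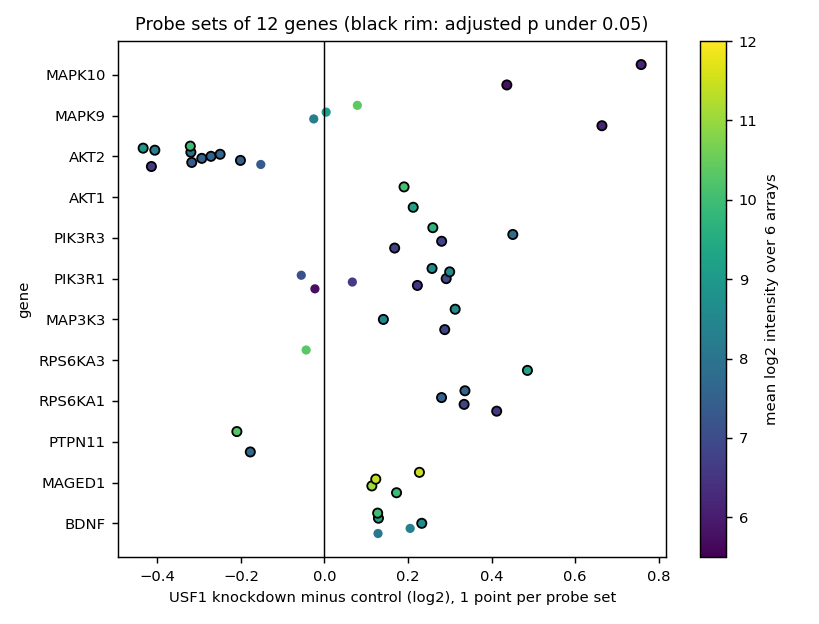
Change after USF1 knockdown (USF1 knockdown minus control, log2) of each tested probe set of 12 genes, coloured by mean log2 intensity over the 6 arrays and rimmed in black where the adjusted p was under 0.05 with every probe set tested on its own. The 11 probe sets of AKT2 all lie left of 0, whereas MAPK9 and RPS6KA3 each have 1 probe set far to the right of their brighter ones.

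Probe sets of a gene were never called in opposite directions. Among 33 genes with 2 or more tested probe sets, 20 had at least 1 call upward and none downward, 2 had at least 1 call downward and none upward, and 11 had no call. The same counts were not made over all genes, so they cannot be read as a trait of the set. A gene with more probe sets also has more chances of a call. Over all 115 tested probe sets of the set 47 rose and 12 fell, 10 of the 12 being those of AKT2. Among all 29576 probe sets tested on their own 37.3% passed, 19.8% upward and 17.5% downward.

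Other genes of the pathway rose and fell in similar numbers. Of 61 other genes of the pathway, 41 were tested and 10 rose and 12 fell, or 24.4% and 29.3% against 22.0% and 18.7% of all tested genes, with a median of 0.03. ATF4, a stress transcription factor that neurotrophin signals can reach through RSK, fell by 0.29 (adjusted p = 0.000461), and the 14-3-3 protein gene YWHAE fell by 0.25 (adjusted p = 0.0011). BEX3, a p75-associated cell death protein, rose by 0.22 (adjusted p = 0.000914). Whether the 2 lists differ was not tested.

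Known transcriptional outputs of the ERK and AKT branches were read alongside. Of 16 tested ERK target genes 4 rose (25%) and 5 fell (31.2%), against 22.0% and 18.7% of all tested genes, with a median of -0.06. EGR1, PHLDA1 and MYC fell by 0.82, 0.54 and 0.37 (adjusted p of 3.14e-05, 7.9e-05 and 0.000164). The 4 that rose were SPRY1 by 0.41, CCND1 by 0.18, SPRED1 by 0.12 and SPRY2 by 0.10 (adjusted p of 0.000196, 0.00169, 0.0122 and 0.0471). The remaining genes that fell were DUSP6 by 0.43 and DUSP5 by 0.11 (adjusted p of 0.000584 and 0.0311). The genes that rose and the DUSP genes were named after their values were seen. The SPRY, SPRED and DUSP genes encode inhibitors of the ERK route, and these moved in both directions. In the UGT1A3 pair 5 of 16 ERK targets were higher and 1 lower by 0.32 or more, against 11.1% and 8.02% of all genes. There EGR1 read 9.17 in the knockdown array, against 7.80 in the control, a difference of 1.37 in the opposite direction. Of 12 tested FOXO targets, which AKT holds down, 5 rose (41.7%) and 1 fell (8.33%), against the same 22.0% and 18.7%, with a median of 0.19. In the UGT1A3 pair 6 of 12 were higher by 0.32 or more and 0 were lower, against 11.1% and 8.02% of all genes. One of the 6, the receptor tyrosine kinase gene ERBB3, read 5.18 in the knockdown array, against 4.71 in the control. The control value lay under the dim limit of 4.76, so ERBB3 was compared only through its knockdown value. After USF1 knockdown ERBB3 rose by 0.72 (adjusted p = 0.000228), the stress sensor SESN1 by 0.60 (adjusted p = 0.000706) and the CDK inhibitor CDKN1B by 0.36 (adjusted p = 0.000798). The 1 that fell was GADD45A, by 0.24 (adjusted p = 0.00214).

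In the UGT1A3 pair 39 genes of the set were bright enough to be compared, 38 of them also tested after USF1 knockdown. With 1 array per group these are differences between 2 arrays, with no replicate check and no test. At a limit of 0.32 on the log2 scale, 6 of the 39 genes were higher in the UGT1A3 knockdown array and 4 were lower. Of all 11620 genes 11.1% were higher and 8.02% lower by as much, and in either direction the shares were 25.6% of the set and 19.2% of all genes. The median difference was 0.05 over the set and 0.02 over all genes. Between 2 arrays of the same USF1 group, 0.673% to 4.35% of genes lay as far apart.

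The genes with larger differences came from several branches. MAPK10 read 5.87 in the UGT1A3 knockdown array, against 5.24 in its control, a difference of 0.63 and the only one past 1.5-fold, where 3.56% of all genes lay past it. With 16 intensity units added before the log the difference was 0.469, and with its probe sets averaged 0.472, both short of 1.5-fold. MAGED1 read 10.81 in the knockdown array, against 10.38 in the control, and all 4 of its probe sets were higher, by 0.30 to 0.43. IRS1 read 6.81 in the knockdown array, against 6.38 in the control (0.43), with its 3 probe sets at 0.12 to 0.48. These 3 genes also rose after USF1 knockdown, IRS1 only at the edge of the threshold.

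KIDINS220 read 8.17 in the UGT1A3 knockdown array, against 7.78 in the control (0.38), and PRKCD read 6.21 in the knockdown array, against 5.82 in the control (0.39). GSK3B also lay past the limit upward, at 0.33. None of these 3 had passed after USF1 knockdown on its brightest probe set.

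CRKL read 7.95 in the UGT1A3 knockdown array, against 8.39 in the control (-0.44). AKT1 read 8.93 in the knockdown array, against 9.31 in the control (-0.38), with its second bright probe set at -0.40. MAPK9 read 8.48 in the knockdown array, against 8.86 in the control (-0.38), and 3 of its 4 probe sets lay between -0.41 and -0.38. RPS6KA2, at -0.33, was the fourth gene past the limit downward. CRKL and AKT1 had risen after USF1 knockdown, so their direction differed between the 2 sets.

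AKT2, which fell after USF1 knockdown, read 9.23 in the UGT1A3 knockdown array, against 9.54 in the control, a difference of -0.31. Of its 11 bright probe sets 9 were lower and 2 higher, over a range of -0.60 to 0.47. The ERK5 cascade gave no common direction in this pair, with -0.08 for MAP3K3 on its brightest probe set and 0.18 for MAP2K5. All 3 bright probe sets of MAP3K3 were lower, at -0.50 to -0.08. MAPK7 had the same deposited value of 6.40 in both arrays. Identical values in both UGT1A3 arrays occurred in 10 of the 158 probe sets of the set, or 6.33%, and in 4.67% of all probe sets. Between 2 arrays of the same USF1 group only 124 to 167 of all 49293 non-control probe sets were identical, against 2301 in the UGT1A3 pair. Why so many values coincide was not tested, and an identical pair cannot be read as a measured lack of change.

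**Figure D4:**
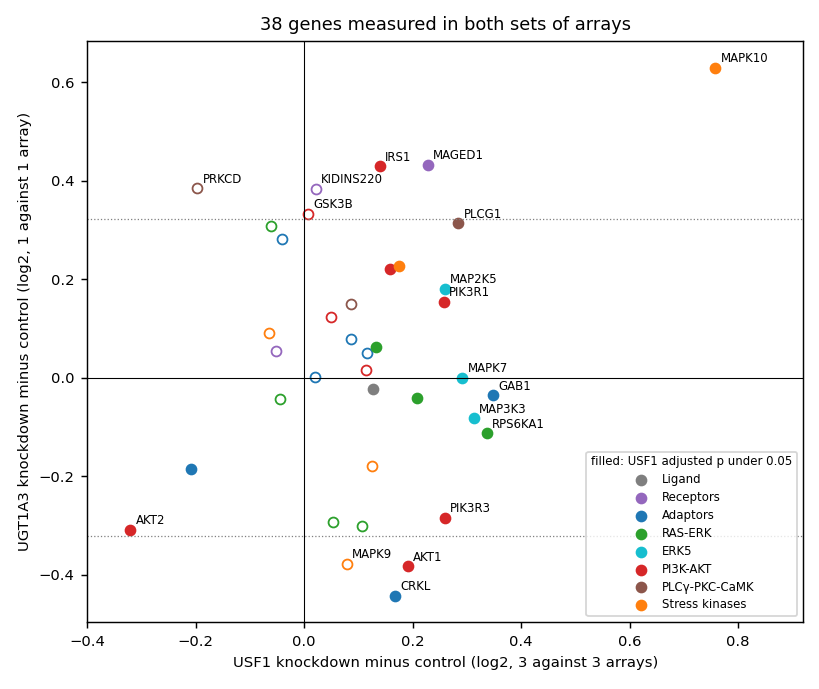
Change after USF1 knockdown (horizontal, log2, 3 against 3 arrays) and difference in the UGT1A3 pair (vertical, log2, 1 against 1 array) for the 38 genes measured in both, coloured by branch and filled where the USF1 adjusted p was under 0.05. Dotted lines mark 0.32 in either direction. MAPK10 lies apart at the upper right (0.76 and 0.63), AKT2 at the lower left (-0.32 and -0.31), and AKT1, CRKL and MAPK9 lie below the lower line.

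Over the 38 genes measured in both sets, 20 had the same sign in both, or 52.6%, and 55.2% of all 11130 genes measured in both did. Of the 20 genes that passed after USF1 knockdown 11 had the same sign in the UGT1A3 pair, or 55.0%, against 60.5% of all 4596 such genes. The shares of the set lay close to those of all genes. Genes with identical values in the UGT1A3 pair, MAPK7 among them, were counted as not having the same sign. For MAP3K3, PIK3R1, PDPK1, PLCG1 and MAP3K5 the brightest probe set, and so the one compared, was not the same in the 2 sets of arrays.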

How the data were processed

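RNA was measured on 8 arrays. The authors deposited a single table of values per probe set, taken as log2 intensity because the values lie in its usual range. The submitters' processing notes name MAS5 with no role or version, and the step that scaled the arrays is not stated. The number of arrays limits the precision.

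Of 49395 probe sets 102 were controls and were left out. The platform annotation gave 1 gene symbol to 44988 probe sets, several to 1832 and none to 2473, and Entrez numbers updated the symbols of 44961 through the GRCh38.p14 gene table. Probe sets with several symbols were not used, among them 6 that share a gene of the set. The probe set with the highest mean over the arrays compared stood for its gene. A gene was called dim and left out when that mean lay under the 40th percentile over probe sets, which was log2 5.63 over the 6 USF1 arrays and 4.76 over the UGT1A3 pair.

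The USF1 comparison was fitted over all 11448 remaining genes using lmFit and eBayes of limma 3.58.1 under R 4.3.3, as knockdown minus control, two-sided, with Benjamini-Hochberg adjustment over all of them and a threshold of 0.05. SE is the moderated standard error, and n is 3 against 3 throughout. A second fit tested every bright probe set on its own. The UGT1A3 pair gave differences alone. The fit was tested on simulated data.

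The genes of the set, the other lists and the tests were chosen with earlier results of these data known. Array values are given for the tested ligands and receptors, the 14 largest changes past the threshold with separate groups, the smallest adjusted p of each branch and the 8 largest differences of the UGT1A3 pair, and up to 3 genes are named of each further list. The cell type markers, PIK3CD, GADD45A and further ERK targets are named beyond this rule. Other genes of the set are given by their change or counts. Alternatives covered normalization, the dim limit, added intensity, the choice of probe set, the prior, a replicate block and leaving out each array. Promoter windows came from RefSeq.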

Additional observations from a re-analysis of the deposited data

How the results depend on the processing

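Of the 20 genes that passed after USF1 knockdown, 14 kept their direction and side of the threshold under all of the 15 alternatives that tested them. GAB1 and MAP2K5 were not tested when probe sets were averaged, nor were MAPK10 and GAB1 at the stricter dim limit, the 60th percentile. The other 6 (BDNF, CRKL, IRS1, PLCG1, PIK3R1 and PIK3CB) kept their direction and lost the call under at least 1. Between 14 and 18 genes rose and 2 to 3 fell when each array was left out in turn. The shares of all genes moved too, and 31.8% to 38.2% of them passed in either direction. Without control 2, 14 genes of the set rose, where 18.2% of all genes rose. Without knockdown 3, 18 rose, where 21.7% of all genes did. Under the other alternatives 14 rose with no limit on dim genes, where 11% of all genes rose and 20.1% passed. With an intensity trend and robust prior 23 rose, where 25.2% of all genes rose and 46.9% passed. With the replicate number as a block 18 rose and 3 fell, where 20.1% of all genes rose and 37.0% passed. The added fall was PRKCD (-0.20, adjusted p = 0.0314). The labels do not say whether equal numbers pair the samples. Deviations of arrays with the same number correlated at -0.10, 0.20 and 0.09, and those with different numbers at -0.27 to 0.19. With 3 arrays per group these values cannot settle it. Averaging a gene's probe sets turned the sign of SOS1 (0.085, adjusted p = 0.0817), RPS6KA3 (0.221, adjusted p = 0.000563), GSK3B (-0.006), CAMK2D (-0.013) and MAPK8 (0.040), of which RPS6KA3 passed. Leaving out 1 array turned the sign of 4 genes, none of which passed: NTRK3 ran from -0.015 without control 3 to 0.146 without knockdown 2, NGFR from -0.092 without knockdown 1 to 0.006 without knockdown 2, KIDINS220 from -0.025 without knockdown 2 to 0.059 without knockdown 1 (and -0.001 without control 2), and GSK3B from -0.010 without knockdown 1 to 0.029 without knockdown 3. In the UGT1A3 pair 4 genes were higher and 0 lower past 0.32 when probe sets were averaged, over 34 genes, and 4 were higher and 3 lower with 16 intensity units added, where GSK3B (0.320), PRKCD (0.308) and RPS6KA2 (-0.227) lay short of the limit. At the 60th percentile 4 were higher and 3 lower over 32 genes. At a 1.5-fold limit 1 was higher and 0 were lower, where 3.56% of all genes lay past it in either direction. For the other alternatives of this pair the share of all genes is not given, so those counts cannot be read as a trait of the set. The dim limit removed the receptors NTRK2 and, in the UGT1A3 pair, NTRK3, and of 43 dim probe sets of the set 1, of GAB1, passed when all probe sets were tested without a limit.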
